A study of Mus musculus with 9 samples.

Results

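The genes examined here are 33 mouse genes that mark absorptive cells of the small intestine, chosen by name for their role as parts of the enterocyte brush border, its enzymes and transporters, the lipid-absorbing machinery or the transcription factors of intestinal identity. All 33 were found once each among the 46517 genes of the deposited tables. Their RNA was measured in 9 cultures of duodenal organoids, which are epithelial spheres grown from crypts in basement membrane gel. The organoids came from wild-type C57BL/6J mice and were grown with medium conditioned by L-WRN cells, which supplies Wnt3a, R-spondin 3 and noggin and favours stem cells over differentiated ones. They were kept at 5% O2, dissociated to single cells and given an adenovirus at 50 particles per cell, and RNA was taken about 72 hours later. The 3 Ad-GFP cultures received only green fluorescent protein and served as controls for the transduction. The 3 Ad-hHIF2 and the 3 Ad-hHIF1 cultures received a human hypoxia-inducible factor, HIF2 or HIF1, with both oxygen-sensing prolines replaced by alanine so that it escapes degradation. The study calls its samples biological replicates, but the labels do not say that they came from separate mice, so the p-values measure the spread between these cultures, which may be technical. Expression of the vectors is transient, and the age and sex of the mice are not given in the sources used here.

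An enterocyte carries on its apical face a dense array of microvilli, the brush border, which actin-bundling proteins such as villin and espin hold upright and which protocadherins tie together at their tips. Disaccharidases, peptidases and an alkaline phosphatase sit in that membrane and finish digestion, and sugar and peptide carriers beside them take up the products. Absorbed fat is rebuilt inside the cell, loaded on apolipoprotein B by the transfer protein Mttp and exported as chylomicrons. HNF4, CDX and GATA transcription factors switch this program on as cells leave the crypt. HIFs are transcription factors that bind DNA with ARNT at short sites with the core ACGTG or GCGTG.

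The libraries held 21722618 to 51119041 expected counts. Values per library are CPM, counts scaled to library size after normalization by the trimmed mean of M values (TMM), and 3 counts in a library correspond to 0.0589 to 0.15 CPM. The mouse Epas1 row, which encodes HIF2 and to which reads of the human transgene can be assigned, measured 604 to 758 CPM in Ad-hHIF2 against 1.47 to 2.20 CPM in Ad-GFP. The mouse Hif1a row measured 299 to 319 CPM in Ad-hHIF1 and 198 to 251 CPM in Ad-GFP, groups that did not overlap, with an edgeR adjusted p of 0.486. Ad-hHIF2 replicate 1 stood apart with a TMM factor of 1.31 against 0.907 to 1.03 in the other libraries. In Ad-hHIF1 replicate 3 the repeat-rich predicted genes Gm10800 and Gm26870 took 16.0% of the counts against 0.433% to 4.28% elsewhere.

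The label enterocyte was borne out only in part, since the members ranged from abundant to undetected. All the disaccharidases and carriers were close to the detection limit, while the lipid gene Apob and the cytoskeletal gene Ezr were abundant. In Ad-GFP, levels between genes were compared as CPM per kilobase of effective length, for which the median of 14684 genes was 4.05. Ezr, which encodes the membrane-cytoskeleton linker ezrin, was the most abundant member at 169 ± 16.7 CPM per kilobase (SD, n = 3), in the top 1.87% of genes. Apob followed at 51.6 ± 0.520, in the top 5.41%. Next came Eps8, an actin-capping and bundling protein of microvillus tips, at 17.3 ± 1.09 CPM per kilobase. Hnf4a, a nuclear receptor of the intestinal and hepatic epithelium, stood at 13.8 ± 2.44 and Gata4 at 8.08 ± 0.513 CPM per kilobase. Espn, the actin bundler espin, and Gata6 measured 5.90 ± 1.06 and 5.59 ± 0.558 CPM per kilobase, which are within their spread of each other. These 7 members lay above the median of all genes. The tip protocadherin Cdhr2 and the homeobox factor Cdx2 lay just below it at 3.96 ± 0.357 and 3.40 ± 0.240 CPM per kilobase. The gene for villin, Vil1, was in the lower part of the range at 1.56 ± 0.0686 CPM per kilobase, as were the brush border myosin Myo7b at 1.56 ± 0.231 and Mttp at 1.21 ± 0.345, and these cannot be ordered beyond their spread.

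The count filter left 14 members untested in every comparison. They were all 4 disaccharidases (sucrase-isomaltase Sis, lactase Lct, trehalase Treh and maltase-glucoamylase Mgam) and all 4 carriers (the sodium-glucose carrier Slc5a1, the hexose carriers Slc2a2 and Slc2a5, and the peptide carrier Slc15a1). The others were the peptidase gene Dpp4, the intestinal alkaline phosphatase gene Alpi, the fatty acid binder Fabp1, the tip-complex scaffold Ush1c, and the factors Cdx1 and Hnf4g. Together these genes took 302 counts over all 9 libraries, of which 76 were in Ad-GFP, 90 in Ad-hHIF2 and 136 in Ad-hHIF1. Scaled to library size, their sums were 0.519 to 1.27 CPM in Ad-GFP, 0.572 to 1.07 CPM in Ad-hHIF2 and 0.793 to 2.76 CPM in Ad-hHIF1, so the groups overlapped. The 2.76 CPM belonged to Ad-hHIF1 replicate 3, which alone held 63 of the counts. The highest value in a single library was 18 counts, for Lct in Ad-hHIF1 replicate 3. Cdx1 had 0 counts in all 9 libraries, and Fabp1 had 1 count in Ad-GFP replicate 1 and 0 elsewhere. Because the count filter removed them, the main fits gave no test of a difference in these genes.

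In Alpi, Ush1c and Slc2a2 all 3 libraries of 1 group had more counts than any other library. These genes were picked from the untested members for that separation, and its share among all low-count genes was not computed. Alpi had 0, 1 and 0 counts in the Ad-GFP libraries, 6, 7 and 8 in Ad-hHIF2, and 3, 1 and 2 in Ad-hHIF1. For Alpi the ratio of the depth-scaled sums in Ad-hHIF2 over Ad-GFP was 15.5. Its 95% interval of 2.49 to 641 covers counting error only, not the choice of the gene by these same counts. Ush1c had 0 counts in all Ad-GFP and Ad-hHIF2 libraries and 2, 7 and 1 in Ad-hHIF1. Replicate 3 thus held 7 of its 10 counts. Slc2a2 had 4, 4 and 0 counts in Ad-GFP, 2, 3 and 3 in Ad-hHIF2, and 8, 11 and 5 in Ad-hHIF1. Sis had 0 counts in the 3 Ad-GFP libraries, 0, 1 and 6 in Ad-hHIF2, and 0, 5 and 3 in Ad-hHIF1. Mgam had 0, 6 and 5 counts in Ad-GFP and 0 in each library of the HIF groups. Slc5a1 appeared in only 2 libraries, with 4 counts in Ad-GFP replicate 3 and 6 in Ad-hHIF1 replicate 3.

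**Figure D1:**
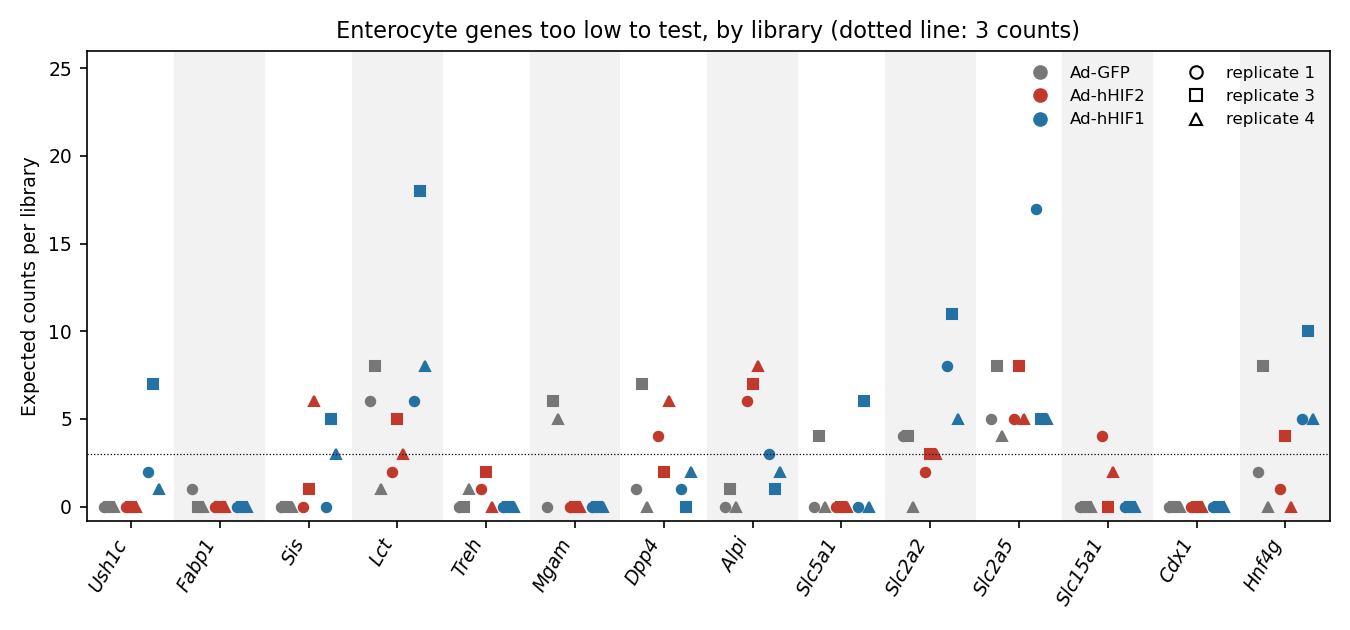
Expected counts (vertical axis) of the 14 enterocyte genes that no comparison could test, with 1 point per library, coloured by group and shaped by replicate number. Nearly all points lie under 10 counts, Cdx1 is at 0 throughout, and the 3 Ad-hHIF2 points of Alpi (6, 7 and 8 counts) lie above its other points.

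Promoter sequence was at hand for 27 of the 33 members in RefSeq (GRCm38.p6), as 30 windows from 250 bases before to 50 bases after an annotated start. None was found for Eps8, Gata4 and Gata6, whose RNA rose under HIF2 (below), or for Myo7b, Cdx1 and Hnf4g. The shares that follow do not cover these genes. Short cores were searched on both strands. The HNF4 site core CAAAGTNCA was in 4 of 30 member windows (13.3%) against 1.41% of all 32851 windows. Those windows belong to Apoa4, Fabp2, Alpi and Treh. They are printed because Hnf4a, whose RNA fell under HIF2, and Apoa4, whose RNA rose, are both described below. Fabp2 was not called, and Alpi and Treh could not be tested. The motifs were chosen with earlier results of these data known, and a link between HNF4 and these genes was not tested. The HIF cores were no more frequent in the members than elsewhere: ACGTG was in 16.7% of member windows and 19.6% of all windows, and GCGTG in 23.3% and 32.4%. The CDX core TTTAT was in 36.7% of member windows and 40.0% of all, and the TATA box core TATAAA, whose reverse strand can overlap TTTAT, in 23.3% and 13.6%. The GATA core AGATAA was in 13.3% of member windows and 11.2% of all. A match describes letters in this window only, and 300 bases leave out distal enhancers. The Apoa4 window lies at chr9:46240594-46240893 on the plus strand, that of Fabp2 at chr3:122894822-122895121 on the plus strand, that of Alpi at chr1:87101557-87101856 on the minus strand, and that of Treh at chr9:44672983-44673282 on the plus strand. The Sis window at chr3:72967814-72968113 on the minus strand is added as a disaccharidase promoter with 4 CDX cores. Each runs 5′ to 3′ along the gene, and capitals mark the HNF4 core, or the CDX cores in Sis, where matches on either strand can run together.
Apoa4: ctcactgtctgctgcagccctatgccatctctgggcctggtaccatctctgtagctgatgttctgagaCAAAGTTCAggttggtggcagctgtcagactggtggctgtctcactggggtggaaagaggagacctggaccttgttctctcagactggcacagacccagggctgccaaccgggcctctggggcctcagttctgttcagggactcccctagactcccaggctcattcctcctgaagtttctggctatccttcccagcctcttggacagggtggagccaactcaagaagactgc
Fabp2: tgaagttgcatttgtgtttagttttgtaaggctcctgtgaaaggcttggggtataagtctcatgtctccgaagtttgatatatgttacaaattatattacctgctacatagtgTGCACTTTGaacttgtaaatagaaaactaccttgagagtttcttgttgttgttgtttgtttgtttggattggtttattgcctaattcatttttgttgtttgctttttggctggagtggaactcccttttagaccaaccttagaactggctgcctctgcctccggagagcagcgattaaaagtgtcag
Alpi: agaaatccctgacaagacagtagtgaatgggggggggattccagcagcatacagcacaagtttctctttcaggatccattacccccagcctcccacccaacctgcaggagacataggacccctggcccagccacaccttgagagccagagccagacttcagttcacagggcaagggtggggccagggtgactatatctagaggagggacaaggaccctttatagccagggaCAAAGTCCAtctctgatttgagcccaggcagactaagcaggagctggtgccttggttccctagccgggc
Treh: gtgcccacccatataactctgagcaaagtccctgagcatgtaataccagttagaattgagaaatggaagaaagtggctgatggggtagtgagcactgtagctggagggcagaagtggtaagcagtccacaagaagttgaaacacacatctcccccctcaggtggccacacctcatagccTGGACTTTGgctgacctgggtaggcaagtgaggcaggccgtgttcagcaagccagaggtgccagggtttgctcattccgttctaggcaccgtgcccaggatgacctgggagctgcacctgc
Sis: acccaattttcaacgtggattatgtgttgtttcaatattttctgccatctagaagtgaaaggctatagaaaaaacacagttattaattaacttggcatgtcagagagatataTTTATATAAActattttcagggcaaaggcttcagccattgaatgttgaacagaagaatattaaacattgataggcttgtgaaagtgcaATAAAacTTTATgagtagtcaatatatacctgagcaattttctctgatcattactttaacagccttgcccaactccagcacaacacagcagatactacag

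The first comparison asked which enterocyte genes responded to HIF2. Of the 18 members that could be tested against Ad-GFP, 4 rose (Apoa4, Gata6, Gata4 and Eps8), 4 fell (Espn, Enpep, Hnf4a and Apob) and 10 were not called, a call being an adjusted p below 0.05 by edgeR with quasi-likelihood. Over all 14987 genes tested, 29.5% were called, 15.9% higher and 13.6% lower. The median log2 fold change of the tested members was -0.06 against -0.01 over all genes, and the median size of the change was 0.53 against 0.32. Apoa4 and Apoa1 passed the count filter only through Ad-hHIF2, and Enpep, Myo1a and Fabp2 only through Ad-GFP, a selection that by itself favours a difference. Of the 13 members that passed the filter in both groups on their own, 3 rose and 3 fell. At a change of at least 2-fold, 1 member was higher (Apoa4) and 2 were lower (Espn and Enpep), where 2.90% of all genes were called higher and 3.83% lower. An unadjusted p below 0.05 was reached by 12 of the 18 members and by 41.2% of all genes. The groups did not overlap for 5 members on the higher side and 7 on the lower, against 23.4% and 22.4% of all genes. Because these are bulk cultures, fewer cells of a type and less RNA per cell cannot be told apart.

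**Figure D2:**
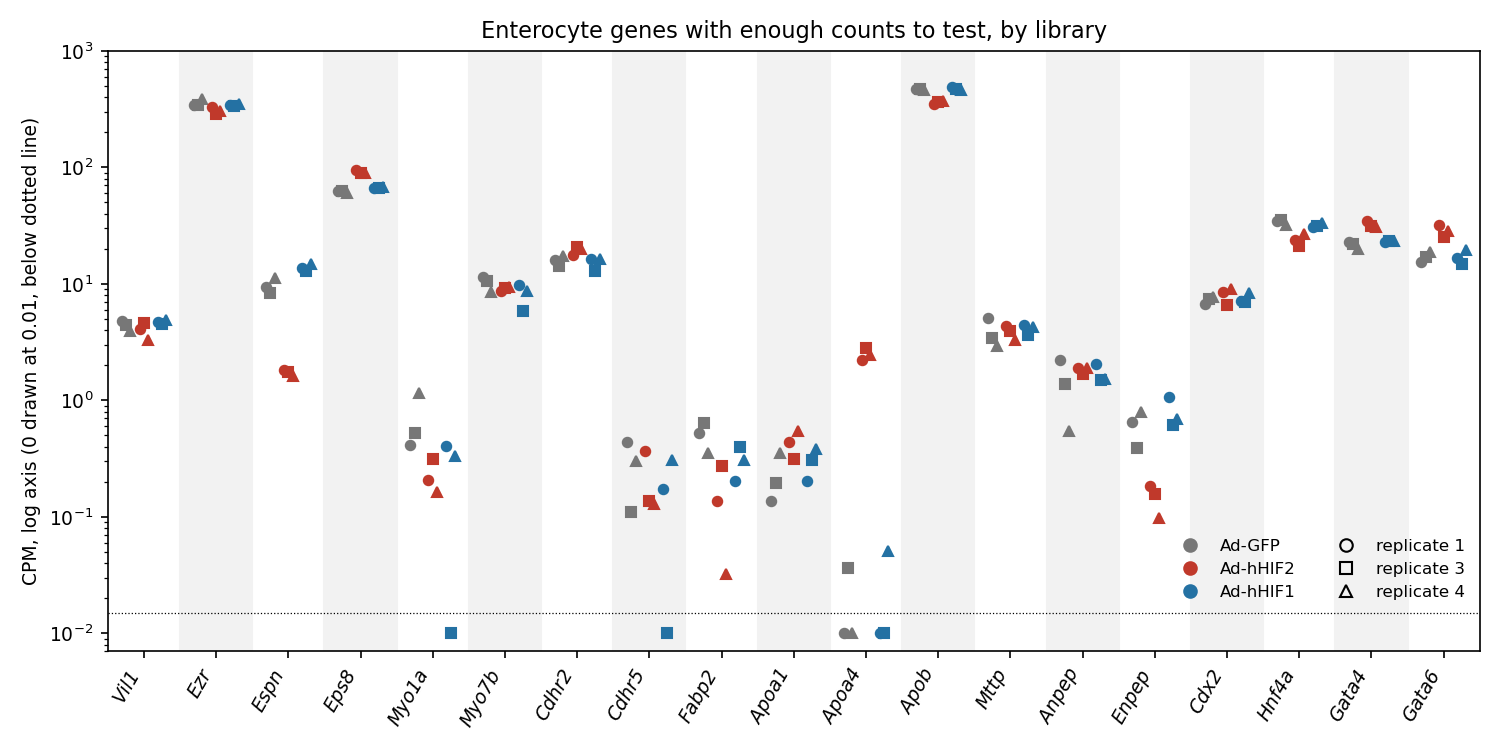
CPM on a log axis for the 19 enterocyte genes tested in at least 1 comparison, with 1 point per library, coloured by group and shaped by replicate number, and values of 0 drawn under the dotted line. Apoa4 is at 2.22 to 2.80 CPM in Ad-hHIF2 and near 0 elsewhere, while the Ad-hHIF2 points of Espn and Enpep lie below those of both other groups.

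Among the brush border proteins, Espn gave the clearest decrease. Espin cross-links the parallel actin filaments of microvilli and of sensory hair bundles, and its gene lies on chromosome 4, from 152120331 to 152152371 on the minus strand of GRCm38. It measured 9.40, 8.26 and 11.1 CPM in Ad-GFP, 1.81, 1.75 and 1.62 CPM in Ad-hHIF2, and 13.8, 12.8 and 14.8 CPM in Ad-hHIF1. All 3 Ad-hHIF2 libraries were below all others, and the Ad-hHIF1 libraries were above all others. Against Ad-GFP the log2 fold change under HIF2 was -2.46 ± 0.16 (SE), or 5.51-fold lower, with an edgeR adjusted p of 1.93e-05. The call held with each library left out, up to an adjusted p of 0.000296.

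Eps8 moved the other way. It measured 63.1, 61.9 and 60.7 CPM in Ad-GFP, 94.9, 89.7 and 89.5 CPM in Ad-hHIF2, and 66.6, 66.3 and 67.9 CPM in Ad-hHIF1. The Ad-hHIF2 libraries were above all others without overlap. The change over Ad-GFP was 1.48-fold (log2 0.57 ± 0.07 SE, edgeR adjusted p 0.000421).

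The other 5 tested brush border genes did not pass the threshold against Ad-GFP. The tip protocadherin Cdhr2 measured 15.9, 14.3 and 17.1 CPM in Ad-GFP, 17.8, 20.6 and 19.9 CPM in Ad-hHIF2, and 16.4, 12.8 and 16.3 CPM in Ad-hHIF1. Its Ad-hHIF2 libraries were the highest, and its log2 fold change of 0.31 over Ad-GFP had an edgeR adjusted p of 0.0505. With a library left out that p ranged from 0.0236, without Ad-GFP replicate 4, to 0.167, without Ad-GFP replicate 3, and it was also below 0.05 without Ad-hHIF2 replicate 1 (0.0406). The brush border myosin Myo1a had 15, 19 and 23 counts in Ad-GFP and 9, 16 and 5 in Ad-hHIF2, with a log2 fold change of -1.52 and an adjusted p of 0.0731. Ezr gave -0.22 with an adjusted p of 0.104. The intervals of Vil1 (-0.54 to 0.29 on the log2 scale) and Myo7b (-0.44 to 0.13) included no change and left out a 2-fold difference. Cdhr5, the partner of Cdhr2 at the microvillus tip, had 16, 4 and 6 counts in Ad-GFP and 16, 7 and 4 in Ad-hHIF2 and could not be tested there.

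In the lipid group Apoa4 rose from near 0. It encodes apolipoprotein A-IV, a component of chylomicrons made by enterocytes when they absorb fat, and lies on chromosome 9 from 46240696 to 46243459 on the plus strand. The expected counts were 0, 1.32 and 0 in Ad-GFP, 97, 142.64 and 76 in Ad-hHIF2, and 0, 0 and 2 in Ad-hHIF1. Every Ad-hHIF2 library was thus far above every library of the other groups. The ratio of the depth-scaled sums was 233 against Ad-GFP, with a 95% interval of 41.5 to 9237 for counting error only. The gene passed the count filter only through the Ad-hHIF2 libraries, so its p is not given as support, and its fitted log2 fold change of 7.47 depends on the prior count. Even then its level was 1.49 ± 0.175 CPM per kilobase (SD, n = 3), below the median gene of the control cultures. The antisense genes Gm10680 and Gm47528 overlap it, and since the strand setting of the counting is not stated, reads of the strands cannot be told apart.

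The neighbouring apolipoprotein gene Apoa1, about which HDL is built, had 5, 7 and 7 counts in Ad-GFP, 19, 16 and 17 in Ad-hHIF2, and 7, 7 and 15 in Ad-hHIF1. In CPM the Ad-GFP and Ad-hHIF2 libraries overlapped, and the log2 fold change of 0.98 had an edgeR adjusted p of 0.204. Apob, the structural protein of the chylomicron, fell by a small and even amount. It measured 466, 469 and 459 CPM in Ad-GFP, 346, 363 and 372 CPM in Ad-hHIF2, and 488, 472 and 458 CPM in Ad-hHIF1. The Ad-hHIF2 libraries lay below all others. The log2 fold change against Ad-GFP was -0.36 ± 0.08 (SE), a decrease to 0.778-fold, with an edgeR adjusted p of 0.00787. Mttp, which loads lipid on apolipoprotein B, gave a log2 fold change of 0.01 with an interval of -0.52 to 0.54. Fabp2, the intestinal fatty acid binder, had 19, 23 and 7 counts in Ad-GFP and 6, 14 and 1 in Ad-hHIF2. Its groups did not overlap in CPM, and its log2 fold change of -1.67 had an adjusted p of 0.0837.

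Of the membrane enzymes, the aminopeptidases Enpep and Anpep could be tested. Enpep encodes aminopeptidase A, which removes acidic residues from peptides such as angiotensin II, and lies on chromosome 3 from 129269175 to 129332720 on the minus strand. It had 24, 14 and 16 counts in Ad-GFP, 8, 8 and 3 in Ad-hHIF2, and 37, 14 and 27 in Ad-hHIF1. In CPM the Ad-hHIF2 libraries, at 0.0970 to 0.183, lay below the Ad-GFP libraries, at 0.388 to 0.800. The log2 fold change was -1.999 ± 0.52 (SE), or 3.997-fold lower, with an edgeR adjusted p of 0.0204. This call rested on few counts in a gene that only the Ad-GFP libraries brought past the filter, and the adjusted p was 0.0683 without Ad-GFP replicate 1, 0.0521 without Ad-GFP replicate 4, and 0.0720, 0.0827 and 0.0834 without Ad-hHIF2 replicate 1, 3 and 4. Anpep, aminopeptidase N, ranged from 0.550 to 2.21 CPM in Ad-GFP and from 1.67 to 1.88 CPM in Ad-hHIF2, with a log2 fold change of 0.35 and an adjusted p of 0.573.

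Of the 6 transcription factors 4 could be tested, of which Gata4 and Gata6 rose, Hnf4a fell and Cdx2 was not called. Hnf4a measured 34.2, 35.4 and 32.1 CPM in Ad-GFP, 23.9, 21.2 and 26.7 CPM in Ad-hHIF2, and 30.7, 31.2 and 33.4 CPM in Ad-hHIF1. Its Ad-hHIF2 libraries were below all others. The log2 fold change was -0.50 ± 0.09 (SE), a decrease to 0.706-fold, with an edgeR adjusted p of 0.00471. The antisense gene Hnf4aos overlaps Hnf4a.

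Both GATA factors, zinc-finger proteins of which GATA4 marks the proximal small intestine, rose. Gata4 measured 22.6, 21.8 and 19.8 CPM in Ad-GFP, 34.7, 31.1 and 30.6 CPM in Ad-hHIF2, and 23.0, 23.3 and 23.2 CPM in Ad-hHIF1. Gata6 measured 15.4, 17.1 and 18.8 CPM in Ad-GFP, 31.6, 25.1 and 28.3 CPM in Ad-hHIF2, and 16.7, 14.7 and 19.4 CPM in Ad-hHIF1. For both genes each Ad-hHIF2 library was above every other library. The increase over Ad-GFP was 1.501-fold for Gata4 (log2 0.59 ± 0.08 SE, edgeR adjusted p 0.00101) and 1.67-fold for Gata6 (log2 0.74 ± 0.11 SE, edgeR adjusted p 0.00142). The antisense transcript 1010001N08Rik overlaps Gata6. Cdx2, the homeobox factor that sets intestinal identity, measured 6.64 to 7.65 CPM in Ad-GFP and 6.55 to 8.99 CPM in Ad-hHIF2. Its log2 fold change was 0.16 with an interval of -0.17 to 0.49, so a 2-fold change was outside it.

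The second comparison asked the same of HIF1, against the same 3 Ad-GFP libraries. None of the 17 tested members was called by edgeR, where 0% of 15233 genes were called. The biological coefficient of variation fitted by edgeR, a measure of spread between cultures, was 0.24 here and 0.165 for HIF2 against Ad-GFP. The Hif1a row was 1.41-fold higher in Ad-hHIF1 than in Ad-GFP, and the Epas1 row 388-fold higher in Ad-hHIF2. Whether the arms held equal HIF protein cannot be read from these rows, so isoform and dose cannot be told apart. At an unadjusted p of 0.05, 1 member passed, against 8.59% of all genes. That member was Espn, with a log2 fold change of 0.53 ± 0.14 (SE), 1.44-fold, and an edgeR adjusted p of 0.490. DESeq2 called 139 genes and none of the members, and edgeR without the count filter called 384 genes, Espn among them with an adjusted p of 0.0413. The libraries of the groups did not overlap for Espn, Eps8 and Gata4 on the higher side and Myo1a on the lower, where 8.37% and 9.02% of all genes did so. For the members called under HIF2, the HIF1 intervals on the log2 scale were -0.03 to 0.26 for Eps8, -0.14 to 0.19 for Apob, -0.27 to 0.08 for Hnf4a, -0.08 to 0.29 for Gata4 and -0.31 to 0.29 for Gata6. The interval of Enpep was wide, from -0.76 to 1.53, and Apoa4 could not be tested.

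**Figure D3:**
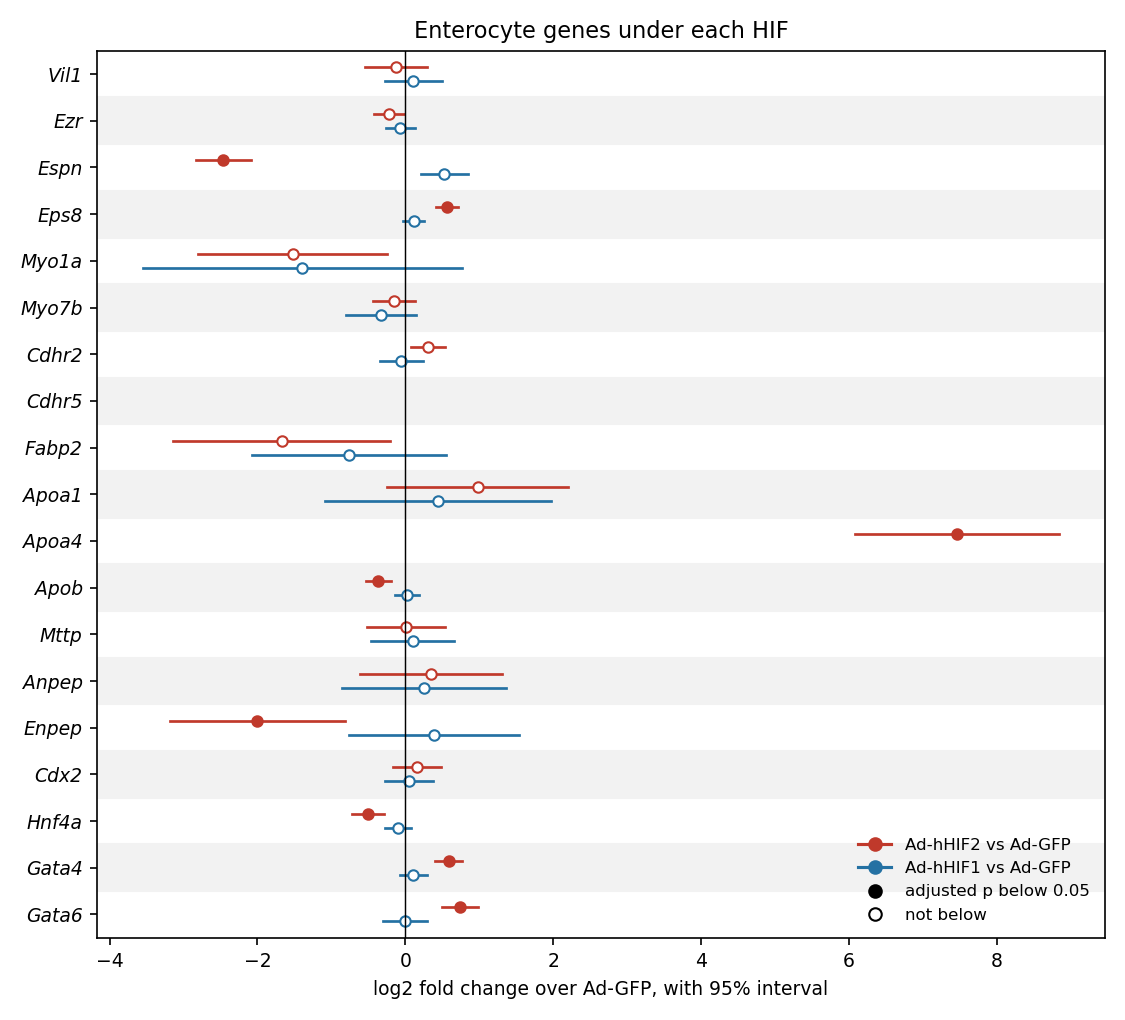
Log2 fold change over Ad-GFP (horizontal axis) with its 95% interval for each tested enterocyte gene, in Ad-hHIF2 and in Ad-hHIF1, which share their Ad-GFP libraries; filled points passed an adjusted p of 0.05, and Cdhr5 has no point because it was tested in neither comparison. Filled points occur only for Ad-hHIF2, with Espn lowest at -2.46 and Apoa4 at 7.47, a value that depends on the prior count, and the points of Apoa4 and Enpep belong to genes that 1 group alone brought past the count filter.

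The factors were then compared directly, in a fit of all 9 libraries, where isoform and dose again cannot be told apart. Of 19 tested members, 5 were higher in Ad-hHIF2 than in Ad-hHIF1 and 4 were lower, where 25.8% of 15556 genes were called, 13.7% higher and 12.0% lower. This comparison uses the same Ad-hHIF2 libraries as the one with Ad-GFP. Of the 13 members that passed the filter in both HIF groups, 4 were higher and 3 lower. With at least 2-fold required as well, 1 member was higher and 2 were lower, against 2.42% and 3.70% of all genes. The groups did not overlap for 5 members on each side, against 22.7% of all genes on the higher and 19.1% on the lower. Espn was 7.98-fold lower under HIF2 than under HIF1 (log2 -3.00 ± 0.14 SE, edgeR adjusted p 3.81e-07). Enpep, which passed the filter only through Ad-hHIF1 of these groups, was 5.27-fold lower. The Apoa4 sums differed by a ratio of 121, with a counting interval of 33.3 to 1005, in a gene that only Ad-hHIF2 brought past the filter. The log2 differences of the other members were 0.74 for Gata6, 0.47 for Gata4, 0.45 for Eps8, -0.39 for Apob and -0.41 for Hnf4a, with edgeR adjusted p from 0.000445 to 0.00773. Cdhr2 was called in this comparison alone, at a log2 difference of 0.35 and an adjusted p of 0.0467, and leaving out any 1 of the 9 libraries raised that p to between 0.0510 and 0.176.

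Beside the members, 54 other genes of the same cell functions were examined. They were chosen with earlier results of these data known, so their counts are not an independent check of the members. Of the 54 genes, 36 could be tested for HIF2 against Ad-GFP. Of these 13 rose and 5 fell, where 15.9% of all genes were called higher and 13.6% lower, and their median log2 fold change was 0.15 against -0.01 over all genes. Among the 31 that passed the filter in both groups, 11 rose and 4 fell, and Tmigd1, Slc6a19 and Cobl below were not among them. The count of decreases rested on single libraries. With a library left out 12 or 13 genes were called higher, but only 2 lower without Ad-hHIF2 replicate 1, 4 without Ad-GFP replicate 1 and 3 without any of the others. Mogat2, which re-esterifies absorbed monoglyceride, lost its call in each of these 6 fits, and Eps8l2, another relative of Eps8, in all but that without Ad-hHIF2 replicate 1. The increases covered brush border and apical trafficking genes (5 higher, 3 lower of 15), regulators (4 higher, 0 lower of 9), lipid handling (2 higher, 2 lower of 7) and digestion and uptake (2 higher, 0 lower of 5). Against HIF1, 13 of 38 tested were higher and 2 lower under HIF2, where 13.7% of all genes were higher and 12.0% lower. Of the 31 that passed the filter in both HIF groups, 12 were higher and 1 lower. Under HIF1 against Ad-GFP none of 37 was called by edgeR, with 1 at an unadjusted p of 0.05, and 0% of all genes were called.

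The largest increase was that of Tmigd1, an adhesion protein of the epithelial brush border. It measured 0.301, 0.305 and 0.10 CPM in Ad-GFP, 2.79, 2.96 and 3.62 CPM in Ad-hHIF2, and 0.378, 0.307 and 0.460 CPM in Ad-hHIF1. Every Ad-hHIF2 library was above all others, and the change over Ad-GFP was 12.3-fold (log2 3.62 ± 0.37 SE). Since only the Ad-hHIF2 libraries brought it past the filter, its p is not given. Slc6a19, the neutral amino acid carrier of the brush border, had 0, 1 and 4 counts in Ad-GFP, 14, 24 and 16 in Ad-hHIF2, and 3, 0 and 5 in Ad-hHIF1. Only the Ad-hHIF2 libraries brought it past the filter, and its log2 fold change of 2.83 had an edgeR adjusted p of 0.0457. Leaving out any library but Ad-GFP replicate 4 raised that p to between 0.101 and 0.166. Nr1h4, the bile acid receptor FXR, measured 1.09, 0.998 and 1.15 CPM in Ad-GFP and 4.94, 5.18 and 4.56 CPM in Ad-hHIF2. Its groups were far apart, at 4.56-fold (log2 2.19 ± 0.20 SE, edgeR adjusted p 0.000103).

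The decreases were led by Cobl, an actin nucleator of the terminal web. It measured 1.56, 1.47 and 1.20 CPM in Ad-GFP, 0.480, 0.373 and 0.194 CPM in Ad-hHIF2, and 1.57, 0.263 and 1.28 CPM in Ad-hHIF1. The Ad-hHIF2 libraries were below the Ad-GFP libraries, and Ad-hHIF1 replicate 3 was as low as they were. The log2 fold change under HIF2 was -1.98 ± 0.41 (SE), in a gene that only the Ad-GFP libraries brought past the filter. Eps8l3, a relative of Eps8, fell by 0.81 on the log2 scale and Dgat2, which makes triglyceride, by 0.66, with edgeR adjusted p of 0.0161 and 0.0117. Without Ad-hHIF2 replicate 1 these p were 0.0608 and 0.0506, and Dgat2 also lost its call with all 9 samples in a single fit (0.0942).

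**Figure D4:**
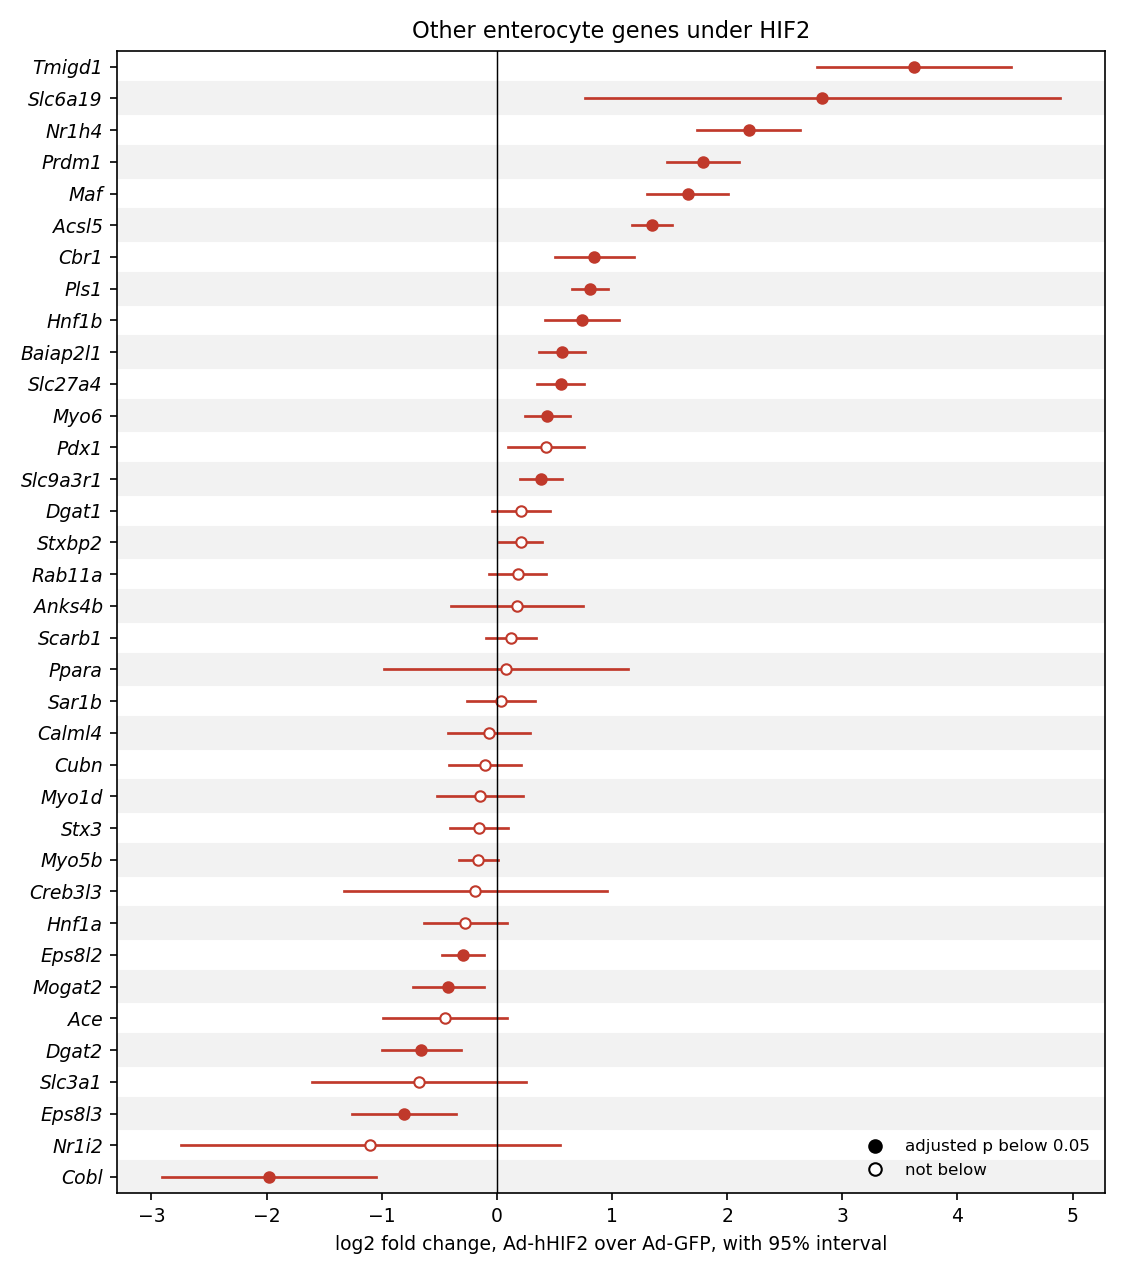
Log2 fold change in Ad-hHIF2 over Ad-GFP (horizontal axis) with its 95% interval for the 36 tested genes among 54 further enterocyte genes, ordered by size, with filled points at an adjusted p below 0.05. There are 13 filled points on the right and 5 on the left, or 11 and 4 without Tmigd1 (3.62), Slc6a19 and Cobl (-1.98), which 1 group alone brought past the count filter.

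Markers of other cell types gave the background against which these values stand. Olfm4 of stem cells, Lyz1 of Paneth cells and Tff3 of goblet cells had 0 counts in all Ad-GFP and Ad-hHIF2 libraries. The 5 stem cell markers summed to 0.366 to 1.501 CPM in Ad-GFP and 1.296 to 2.003 CPM in Ad-hHIF2, and none of the 2 tested was called, against 29.5% of all genes. The list was not uniform. In Lgr5 and Axin2, the tested genes, all 3 Ad-hHIF2 libraries lay above the Ad-GFP libraries. Only the Ad-hHIF2 libraries brought these genes past the count filter, a selection that by itself favours an increase. Lgr5 measured 0.0828, 0.227 and 0.301 CPM in Ad-GFP and 1.18, 0.334 and 0.536 CPM in Ad-hHIF2, with an edgeR adjusted p of 0.0714. Axin2 measured 0.601, 0.0831 and 0.650 CPM in Ad-GFP and 0.709, 0.922 and 1.003 CPM in Ad-hHIF2, with an adjusted p of 0.253. Ascl2 had 4, 0 and 11 counts in Ad-GFP, 3, 0 and 0 in Ad-hHIF2, and 24, 15 and 19 in Ad-hHIF1, so its Ad-hHIF2 libraries were below those of Ad-hHIF1. Smoc2 had 12, 2 and 0 counts in Ad-GFP and 2, 2 and 0 in Ad-hHIF2. The 6 goblet markers summed to 6.03 to 9.34 CPM in Ad-GFP, 2.70 to 2.81 CPM in Ad-hHIF2 and 4.42 to 6.13 CPM in Ad-hHIF1, and of the 2 tested the mucin gene Muc2 fell under HIF2 by 1.77 on the log2 scale. The 5 proliferation markers summed to 91.0 to 104 CPM in Ad-GFP and 67.5 to 77.1 CPM in Ad-hHIF2, and Pcna and Top2a of the 5 tested fell under HIF2. The Top2a call was marginal, with an edgeR adjusted p of 0.0489. With a library left out that p ranged up to 0.158 and stayed below 0.05 only without Ad-hHIF2 replicate 3. The Top2a call was also lost with the replicate number as a block (edgeR adjusted p 0.0546), without the count filter (0.0720) and under DESeq2 (0.103). The Paneth and enteroendocrine lists summed to at most 0.465 CPM in any library. Markers of mesenchyme summed to 11.6 to 17.7 CPM in Ad-GFP and 9.55 to 12.6 CPM in Ad-hHIF2, with 0 of 5 called. The 4 blood cell markers summed to 2.94 to 6.69 CPM in Ad-GFP and 1.78 to 2.68 CPM in Ad-hHIF2. Of the 3 tested, Ptprc, which encodes CD45, was called lower under HIF2. It had 18, 24 and 23 counts in Ad-GFP and 3, 3 and 0 in Ad-hHIF2. Only the Ad-GFP libraries brought it past the count filter, a selection that by itself favours a decrease. The ileal gene Fabp6 and the colonic gene Car1 were at 0 in all 9 libraries, while the colonic water channel Aqp8 measured 0.10 to 1.07 CPM in Ad-GFP and 16.0 to 22.0 CPM in Ad-hHIF2. The goblet, proliferation, blood cell and colonic sums did not overlap between Ad-GFP and Ad-hHIF2. The colonic sum was almost all Aqp8. In Ad-GFP, Muc2 averaged 5.86 CPM and made up most of the goblet sum, while Clca1 overlapped between the groups. Pcna averaged 56.9 CPM there and made up most of the proliferation sum. Mki67, Top2a and Pcna did not overlap between the groups, but Ccnb1 and Cdk1 did. Sums of tuft, gastric or pancreatic, and endothelial markers overlapped between these groups, the tuft sum being almost all Avil (mean 50.8 CPM in Ad-GFP). The part of these cell types in the changes of the enterocyte genes was not tested.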

How the data were processed

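RNA sequencing tables of 9 samples were used. The authors removed low-quality reads and estimated with RSEM the expected counts per gene, which were deposited without normalization; a read matching several genes is shared among them, so counts need not be whole, and they were whole in all 9 libraries for 31 of the 33 members. The effective lengths in the same deposited tables served only to compare levels between genes. The RSEM version, aligner, genome build, annotation and strand setting are not given in the sources used here. The deposited TPM and FPKM columns were not used.

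Expected counts were rounded. Genes with low counts were removed with filterByExpr, libraries were scaled by TMM, and glmQLFTest of edgeR 4.0.16 (limma 3.58.1, R 4.3.3) gave the quasi-likelihood p, adjusted by Benjamini-Hochberg over all genes tested. The threshold for a call was an adjusted p of 0.05, because this includes changes smaller than the 2-fold that the study also required, which was an alternative. Fits against Ad-GFP held the 6 samples concerned, and the fit of Ad-hHIF2 against Ad-hHIF1 held all 9. Standard errors were derived from the F statistic, and intervals are at 95%. Ratios of summed counts carry exact binomial intervals. With 3 against 3 samples an exact two-sided permutation test cannot go below 0.10. The fits were tested on simulated counts.

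All members are accounted for; values in every sample are given for those called in any comparison, and for other enterocyte genes the 3 largest increases and decreases among those called are described. The members, the other gene lists, the motifs and the sequences shown were chosen with earlier results of these data known. Gene positions and overlaps are those of GENCODE M21 (GRCm38), matched by Ensembl identifier, not coordinates of the files. Levels were ranked among genes of at least 200 bases effective length. Alternatives were no count filter, median-ratio size factors, DESeq2 1.42.0, the replicate number as a block, the 2-fold requirement, other samples in the fit, and each sample left out. Python 3.11.15 and matplotlib 3.10.9 were used for tables and figures.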

Additional observations from a re-analysis of the deposited data

How the results depend on the processing

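Of the 18 members tested for HIF2 against Ad-GFP, Espn, Eps8, Apob, Hnf4a, Gata4 and Gata6 kept their call and direction under no count filter, median-ratio size factors, DESeq2, the replicate block, all 9 samples in a single fit and every left-out sample. Apoa4 and Enpep are left out of this statement because a single group brought them past the filter, and without the count filter the adjusted p of Enpep was 0.0629. Requiring 2-fold left 1 member higher and 2 lower in both HIF2 comparisons, with 1009 genes in all against Ad-GFP and 951 against Ad-hHIF1. For HIF1 against Ad-GFP, edgeR called 384 genes without the count filter, of which 1 was a member that was higher, and 7 with all 9 samples in a single fit, and DESeq2 called 139; the cause was not tested. With each sample left out, the number of genes called between Ad-hHIF2 and Ad-hHIF1 ranged from 2594, without Ad-hHIF2 replicate 1, to 4335. The labels do not say what samples of the same replicate number share, and they were not treated as paired. The correlations of same-numbered deviations for HIF2 and Ad-GFP were 0.0752, 0.0703 and 0.134, and each of these samples correlated best with its own number, a hint from the data and not from the design that the other comparisons did not give. The fit with the replicate block called 4631 genes for HIF2 and 0 for HIF1 against Ad-GFP and 3638 between the HIFs, and ended 1 member call, that of Cdhr2 between the HIFs (adjusted p 0.0515), which was also lost with median-ratio size factors (0.0524), DESeq2 (0.0535) and only the 6 HIF samples (0.0700), while without the count filter Cdhr2 was called against Ad-GFP as well (0.0174); it turned the uncalled Myo1a difference between the HIFs to 0.052. Members near no change, none of them called, turned sign in some fits with a sample left out. Against Ad-GFP their log2 fold changes then ranged from -0.24 to 0.0045 for Vil1 and from -0.13 to 0.28 for Mttp under HIF2, and under HIF1 from -0.13 to 0.058 for Cdhr2, -0.047 to 0.37 for Mttp, -0.099 to 0.77 for Anpep, -0.042 to 0.10 for Cdx2 and -0.12 to 0.085 for Gata6. Between the HIFs they ranged from -0.68 to 0.32 for Myo1a, -0.021 to 0.30 for Myo7b, -0.32 to 1.12 for Cdhr5 and -0.18 to 0.020 for Mttp. Of the other enterocyte genes called for HIF2 against Ad-GFP, Mogat2 lost its call without the count filter (adjusted p 0.131), under DESeq2 (0.133), with the replicate block (0.0578) and with all 9 samples in a single fit (0.0590), Slc6a19 under DESeq2 (0.0599) and in the 9-sample fit (0.0841), and Dgat2 in the 9-sample fit (0.0942). The 14 untested members had at most 18 counts in any library, too few for the count filter.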
